A study of Homo sapiens with 18 samples.

Results

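Among the 71318 peaks of open chromatin called in Raji cells, 3861 (5.41%) lie inside very long genes. Their centres fall within a protein-coding gene that spans 500 kb or more on an autosome, and more than 1 kb from both ends of every protein-coding gene. Spans were those of RefSeq genes on GRCh38 (hg38), and each peak is 501 bp wide. The peaks sit in 293 of the 302 autosomal genes of that length, which cover 250.5 Mb, at 15.4 peaks per Mb. The median gene held 11 of them and the richest, AUTS2, held 58. DLGAP2, ADGRL3, TMEM132D, CACNA1C, GALNT17, ENTREP2, SCAPER, PTPRK and SYN3 held none of these peaks, which does not show that they lack open chromatin. The spans do not separate exons, introns and UTRs.

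The assay was Omni-ATAC-seq, which reads open chromatin from the places where a transposase can insert its adapters. The cells were Raji, a B-cell line established from a Burkitt lymphoma. High-GFP and low-GFP cells were each taken at 24, 48 and 72 h, with 3 samples per GFP level and time and 18 in all. Every sample carries the same genotype label, Smarca4+/+, and comes from a series on auxin-inducible degradation of SMARCA4 (BRG1), so all groups share line and genotype. The labels name neither an auxin dose nor the agent given to a group, and both the meaning of GFP and its link to the amount of SMARCA4 are unstated there. The groups are therefore described by GFP level alone. The line is a single tumour-derived line, and nothing in the labels says that samples came from separate cultures.

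SMARCA4 is an ATPase of the BAF complex, which uses ATP to slide and evict nucleosomes and thereby helps transcription factors to hold enhancers and promoters open. Genes of this length are mostly intron. Many encode cell adhesion molecules, ion channels and synaptic scaffolds of neurons, and others encode transcription factors and signalling proteins used in blood cells. Their introns can house enhancers, for the host gene or for others, and internal starts of shorter transcripts. Several such genes lie at common fragile sites, where late-replicating DNA breaks under replication stress.

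A subset of the peaks covers an annotated transcription start inside the long gene. Their sequences show the kind of promoter that an internal peak can hold, so the bases before the start, as far as the peak covers them, are given for 3 starts whose peaks fell, 2 whose peaks rose and the 2 of highest signal. Sequences are from RefSeq (GRCh38.p14), each read 5′ to 3′ on the strand of the transcript named first and ending at the base before its start, with CG dinucleotides in capitals. Starts named LOC or AS1 belong to noncoding genes.
LOC105374933 in PHACTR1, chr6:13229974-13230160 (minus strand): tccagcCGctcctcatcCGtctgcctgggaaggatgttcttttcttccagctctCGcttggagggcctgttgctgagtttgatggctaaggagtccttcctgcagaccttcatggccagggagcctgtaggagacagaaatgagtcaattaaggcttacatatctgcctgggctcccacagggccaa
LOC105376342 in ADARB2, chr10:1359359-1359608 (plus strand): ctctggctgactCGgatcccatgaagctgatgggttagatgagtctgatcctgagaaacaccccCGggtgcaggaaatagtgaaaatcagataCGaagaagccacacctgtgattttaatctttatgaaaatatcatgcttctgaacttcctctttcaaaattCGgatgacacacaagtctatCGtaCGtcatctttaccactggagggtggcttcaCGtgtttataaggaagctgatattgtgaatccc
ELMO1, chr7:36985079-36985328 (minus strand): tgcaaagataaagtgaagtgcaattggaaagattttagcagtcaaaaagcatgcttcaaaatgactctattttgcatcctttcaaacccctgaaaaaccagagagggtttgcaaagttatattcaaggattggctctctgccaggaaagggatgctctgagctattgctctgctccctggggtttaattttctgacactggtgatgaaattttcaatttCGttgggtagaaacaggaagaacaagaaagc
LOC124906319 in FGF12, chr3:192566751-192567000 (plus strand): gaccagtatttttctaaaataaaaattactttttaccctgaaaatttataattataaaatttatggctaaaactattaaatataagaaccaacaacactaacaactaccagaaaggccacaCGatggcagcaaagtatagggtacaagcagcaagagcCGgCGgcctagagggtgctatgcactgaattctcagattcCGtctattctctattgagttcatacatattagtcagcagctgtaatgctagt
DLGAP1-AS1 in DLGAP1, chr18:3593864-3594113 (plus strand): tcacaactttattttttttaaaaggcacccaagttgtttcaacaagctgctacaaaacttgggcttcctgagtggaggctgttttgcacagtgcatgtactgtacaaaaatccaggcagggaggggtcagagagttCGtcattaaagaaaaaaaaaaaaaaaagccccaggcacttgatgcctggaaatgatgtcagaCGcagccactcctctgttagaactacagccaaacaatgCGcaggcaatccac
CDK14, chr7:90709148-90709397 (plus strand): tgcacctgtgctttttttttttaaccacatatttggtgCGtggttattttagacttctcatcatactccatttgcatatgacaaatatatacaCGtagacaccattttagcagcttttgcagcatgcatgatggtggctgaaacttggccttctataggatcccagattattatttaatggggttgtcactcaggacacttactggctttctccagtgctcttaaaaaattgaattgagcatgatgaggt
KLF12, chr13:74133930-74134179 (minus strand): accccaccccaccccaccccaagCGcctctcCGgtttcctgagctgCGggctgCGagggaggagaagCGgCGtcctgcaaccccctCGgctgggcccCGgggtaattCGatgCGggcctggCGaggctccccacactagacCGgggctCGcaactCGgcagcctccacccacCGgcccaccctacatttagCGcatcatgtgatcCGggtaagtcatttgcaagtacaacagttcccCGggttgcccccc

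The deposited table held whole-number counts for 18 columns. Columns that share GFP level and time differed by a constant multiple of counting noise, 1.80 on average, so the 3 columns of each group were counted as 1 sample, which left 6 libraries of 22908652 to 29790483 counts. The column headers give a D number, read here as day 1, 2 or 3 for 24, 48 and 72 h. The labels do not state that reading. The long-gene peaks held 3.18% to 3.41% of counts at high GFP and 2.81% to 3.02% at low GFP. Of 8 B-cell marker genes, 6 had a peak at a gene end, with summed levels of 280 to 291 CPM (counts relative to the scaled library total) in GFP high and 295 to 316 CPM in GFP low and no such peak at the others. T-cell markers had a peak at 5 of 6 genes (109 to 112 CPM in GFP high, 85.8 to 96.6 CPM in GFP low), myeloid markers at 1 of 6 (11.9 to 13.5 and 8.35 to 11 CPM) and epithelial and stromal markers at 2 of 6 (24.8 to 26.8 and 23.6 to 29.3 CPM). CD3G, CSF1R, CD14, MPO, LYZ, CD33, EPCAM, KRT8, KRT18 and CDH1 had none. The B-cell sums were higher in GFP low and the T-cell and myeloid sums lower, each without overlap of the GFP levels. Among B-cell markers only CD74 was itself without overlap, at 91.1 to 95.3 CPM in GFP high and 103 to 114 CPM in GFP low. The T-cell marker CD8A went the other way, with 9.48 to 10.9 and 10.6 to 12.1 CPM, and the myeloid sum is that of ITGAM alone. The part of these differences in the results was not tested. An accessible marker locus is not a measure of its expression.

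Accessibility inside long genes was lower in GFP-low than in GFP-high cells at more peaks than it was higher. Over the 3 times, 1291 of 3861 peaks (33.4%) were called lower in GFP low, against 25.4% of all 71318 peaks, and 269 (6.97%) were called higher, against 13.4% of all peaks. Calls are adjusted p under 0.05 in edgeR's quasi-likelihood test with Benjamini-Hochberg adjustment over all peaks, on 3 libraries per GFP level. The median log2 change of GFP low against GFP high was -0.08 over the long-gene peaks and 0.03 over all peaks. The fallen peaks had a median change of -0.73 and the risen peaks one of 0.44, both on the log2 scale. In bulk libraries a site open in fewer cells and a site less open in each cell cannot be told apart. A fall of at least 2-fold was called at 261 long-gene peaks (6.76%, against 4.0% of all peaks) and a rise of that size at 0 (0.00701% of all peaks). Among all peaks away from gene ends such a fall was called at 4.88%. By the same edgeR call without the size limit, 1277 of the 1291 fallen peaks lay below 0 at all 3 times and 264 of the 269 risen peaks above 0. Over all peaks these counts were 17904 of 18125 and 9195 of 9570. The calls were made from the same libraries, so this agreement is no separate check.

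The levels of the libraries show the calls without a fitted model. At 1263 peaks (32.7%, against 25.1% of all peaks) every GFP-low library lay below every GFP-high library, and at 546 (14.1%, against 20.8%) every GFP-low library lay above. With scaling by loess, which removes any trend of the change with abundance, 1115 were called lower and 581 higher, so that lower calls were 65.7% of calls in place of 82.8%. With that scaling 28.9% of long-gene peaks were lower against 21.8% of all peaks, and 15.0% were higher against 13.3%, so the smaller share of rises than in all peaks was not seen. The loess median was 0.002. DESeq2 called 935 lower (24.2%, against 18% of all peaks) and 60 higher (1.55%, against 5.22%), and the count of higher calls fell to 134 without the 48 h libraries and to 105 without the 72 h libraries.

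**Figure D1:**
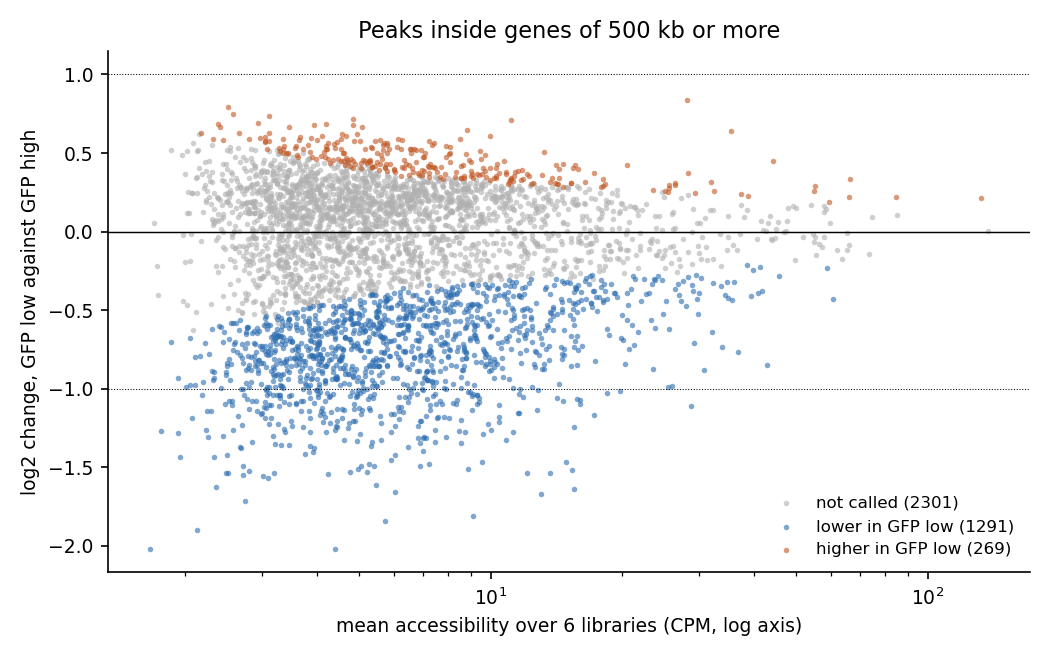
Each point is 1 of the 3861 peaks inside long genes, with its mean level over 6 libraries in CPM on a log axis and its log2 change of GFP low against GFP high. Blue marks the 1291 called lower, orange the 269 called higher and grey the 2301 with neither call, and the dotted lines mark a 2-fold change, which no called rise reached.

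Long-gene peaks were weak. Their median level was 5.43 CPM, compared with 6.94 CPM for the 26869 peaks inside shorter genes and 23.5 CPM for the 13716 peaks at gene ends. Shorter-gene peaks were called lower at 29.9% and higher at 8.12%. Gene-end peaks went the other way, with 4.24% lower and 34.4% higher. Peaks between genes stood at 30.6% and 8.96%. Among all peaks away from gene ends, 30.5% were called lower and 8.43% higher, which is nearer to the long-gene shares than the full table is. These shares are descriptions, and no test was made between classes.

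When peaks were compared within 10 equal classes of abundance, long and shorter genes were nearly alike among weak peaks and parted among strong ones. In class 1, the weakest, 35.0% of long-gene and 32.8% of shorter-gene peaks were called lower. In class 9 these shares were 34.9% and 24.0%. In class 10, the strongest, 21.5% of the 79 long-gene peaks were lower and 13.9% higher, while among shorter-gene peaks 13% were lower and 36.0% higher. That last class rests on few long-gene peaks, and the distance to gene ends was not matched.

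The largest falls lay in genes of unlike function. In RAD51B, a gene of homologous recombination, a peak at chr14:68622722-68623222 had 6.58, 7.02 and 7.59 CPM in GFP high at 24, 48 and 72 h and 2.01, 1.49 and 1.73 CPM in GFP low. Every GFP-low library was below every GFP-high library, and the log2 change was -2.02 ± 0.19 (SE, n = 3 per level, adjusted p = 5.09e-08 by edgeR). A peak in GLIS3, a zinc-finger transcription factor, at chr9:4144235-4144735 held 2.79, 2.61 and 2.61 CPM in GFP high and 0.658, 0.533 and 0.781 CPM in GFP low, a change of -2.02 ± 0.29. These 2 peaks changed about equally on the log2 scale at levels that differ between them.
KALRN, a guanine nucleotide exchange factor for small GTPases, held a peak at chr3:124296364-124296864 with 3.35, 3.69 and 3.01 CPM in GFP high and 1.02, 0.747 and 0.917 CPM in GFP low. The peak of SLC24A3, a potassium-dependent sodium-calcium exchanger, at chr20:19701360-19701860 had 12.7, 7.9 and 6.55 CPM in GFP high and 2.74, 2.2 and 2.41 CPM in GFP low. In that peak the GFP-high level at 72 h was the lowest of its 3 and the GFP-low level stayed within 2.2 to 2.74 CPM. ESRRG, an orphan nuclear receptor, held a peak at chr1:216919515-216920015 with 15.4, 13.3 and 13.9 CPM in GFP high and 3.58, 3.8 and 4.75 CPM in GFP low. The changes of the 3 peaks were -1.90, -1.84 and -1.81, and in none did the GFP levels overlap.

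Among the falls at higher levels, FSTL4, a follistatin-like secreted protein gene, held 24.9, 23.3 and 22.2 CPM in GFP high and 7.2, 7.89 and 7.5 CPM in GFP low at chr5:133825615-133826115. Its change of -1.64 ± 0.12 had an adjusted p of 6.29e-09 by edgeR. In LUZP2, a leucine zipper gene, the peak at chr11:24747163-24747663 held 18.6, 20.1 and 20.6 CPM against 5.34, 7.4 and 6.01 CPM, a change of -1.67 ± 0.12. Both peaks kept a narrow range within each GFP level. The list of 10 largest falls, taken 1 per gene, was completed by peaks in NRXN3 (-1.71) and CADM2 (-1.66), which encode neuronal adhesion proteins, and in FOXP2 (-1.63), a forkhead transcription factor. The FOXP2 peak, at chr7:114104072-114104572, had 2.3, 0.32 and 1.05 CPM in GFP low and 3.05 to 4.1 CPM in GFP high, and DESeq2 did not call it (adjusted p = 0.0833).

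Rises were smaller. The largest was in SDK1, a sidekick cell adhesion molecule of the immunoglobulin superfamily, at chr7:3762095-3762595, with 18.2, 25.6 and 16.9 CPM in GFP high and 30.9, 44.1 and 33.2 CPM in GFP low. The change was 0.84 ± 0.10 (SE, n = 3 per level, adjusted p = 8.79e-07 by edgeR), and the lowest GFP-low library exceeded the highest GFP-high library. A peak in SLC44A5, a choline transporter-like gene, at chr1:75203593-75204093 had 8.38, 9.29 and 7.55 CPM in GFP high and 15.6, 12.8 and 13 CPM in GFP low, a change of 0.71 ± 0.12. Its centre lies only 1.71 kb from a gene end. LSAMP, a limbic adhesion protein gene, rose at chr3:116140036-116140536 from 3.27, 3.86 and 3.9 CPM to 6.03, 6.61 and 5.47 CPM.
The other rises of the 8 largest were weak peaks of under 7 CPM in every library. They lay in CTNNA2 (0.80), an alpha-catenin gene, NPAS3 (0.75), a neuronal transcription factor gene, CACNA2D3 (0.73), a calcium channel subunit gene, LRBA (0.69), a gene mutated in an immune deficiency, and PRKG1 (0.68), which encodes cGMP-dependent protein kinase. GFP levels overlapped at the CACNA2D3 peak, where GFP low had 3.02 CPM at 72 h and GFP high 3.12 CPM at 48 h. DESeq2 did not call the peaks of CTNNA2 (adjusted p = 0.061), NPAS3 (0.07) and LRBA (0.0693).

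**Figure D2:**
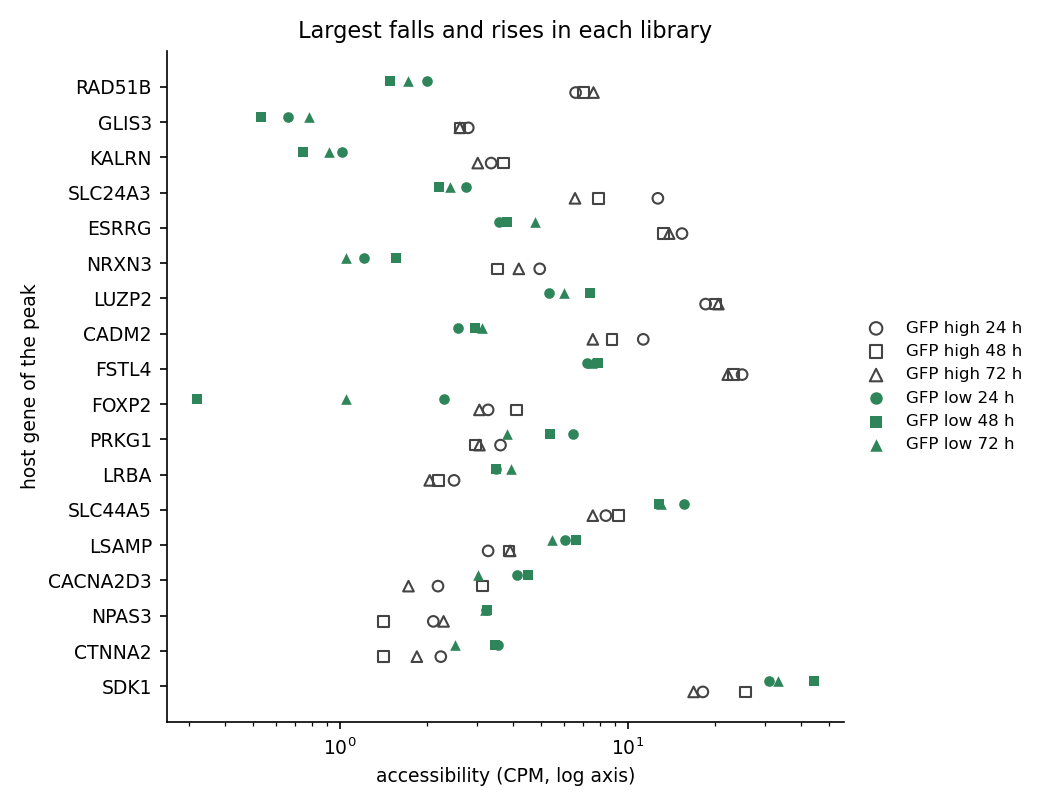
Levels in CPM, on a log axis, of the 10 largest falls (top) and the 8 largest rises (bottom) in each of the 6 libraries, with open symbols for GFP high, filled green symbols for GFP low and shapes for the 3 times. All 10 falls have GFP low fully to the left of GFP high, and among the rises only the CACNA2D3 peak overlaps.

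The changes at the strongest long-gene peaks were small. A peak in KCNQ5, a voltage-gated potassium channel gene, at chr6:72622836-72623336 had 144, 136 and 132 CPM in GFP high and 133, 141 and 139 CPM in GFP low. Its log2 change was 0.003 ± 0.049, and its centre lies just past the 1 kb limit from the gene's end. With loess scaling the change was -0.26 (adjusted p = 0.000154 by edgeR), so its direction depends on the scaling.
SYNE1, a nuclear envelope protein gene, had 124, 122 and 121 CPM in GFP high and 137, 146 and 143 CPM in GFP low at chr6:152301935-152302435, without overlap. The change was 0.21 ± 0.05 (adjusted p = 0.00114 by edgeR) and -0.04 with loess scaling. Peaks in CDK14 (0.10) and SUGCT (0.09) were not called.

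The share of falling peaks differed between host genes, and how much of that spread the small numbers per gene would give was not tested. Of the 293 hosts, 140 had peaks called in both directions, 107 only lower, 18 only higher and 28 neither. In the 167 hosts with 10 or more peaks, the share called lower ran from 0% to 81.8% with quartiles of 25%, 33.3% and 42.9%, and in 23 of them it was over 50%. The median change was below 0 in 114 of these genes and above 0 in 53.
NCKAP5, a microtubule-associated protein gene, had the highest share, with 18 of its 22 peaks lower and 1 higher. Its summed level was 169.3, 158.4 and 152.4 CPM in GFP high and 94.1, 105.7 and 90.5 CPM in GFP low, so that GFP low held 60.5% of the GFP-high mean. The GFP levels did not overlap, and its peak at chr2:132715481-132715981 fell from 20.4, 16.8 and 16.9 CPM to 6.07, 6.51 and 6.01 CPM.
CLVS1, a clathrin-associated lipid-binding protein gene, had 14 of 20 peaks lower and 0 higher, and its summed level in GFP low was 76.1% of that in GFP high. In PARD3B, a cell polarity scaffold gene, 11 of 16 were lower and the summed level was 65.1%. AFF3, a transcription elongation factor gene active in lymphoid cells, had 10 of 15 lower, and DENND1A, a regulator of vesicle trafficking, 8 of 12. FHIT, a fragile-site gene named after its values were seen, had the same share as the last pair, with 12 of 18 lower.

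At the other end, CTNNA2 had 0 of 15 peaks lower and 4 higher, with a summed level of 76.2, 62.1 and 56.4 CPM in GFP high and 93.5, 84.4 and 59.7 CPM in GFP low. GFP low was higher at each time, yet the groups overlapped, since both had their lowest level at 72 h. KCNIP4, a potassium channel-interacting protein gene, had 0 of 10 lower and 3 higher. CAST, the calpain inhibitor calpastatin, and PLCB1, a phospholipase C gene, each had 1 of 15 lower and 2 higher, and CSMD3 had 1 of 14 lower and 3 higher. With DESeq2 none of these 5 genes had a peak called higher, and with loess scaling each had 3 to 8.

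Among the 10 hosts with the most peaks, AUTS2, a gene of neurodevelopment and transcription control, had 24 of 58 lower and 0 higher. Its summed level was 739.1, 731.5 and 693.4 CPM in GFP high and 631.8, 602.2 and 571.0 CPM in GFP low, without overlap. DLG2, a synaptic scaffold gene, had 26 of 50 lower and 4 higher, with a median change of -0.35. FOXP1, a forkhead factor needed for B-cell development, had 18 of 49 lower and 1 higher.
In LPP, a LIM-domain gene whose introns carry lymphoid regulatory DNA, 15 of 35 peaks were lower and 1 was higher. HDAC9, a histone deacetylase gene, had 14 of 50 lower and 3 higher. SOX5, a transcription factor gene, had 12 of 40 lower and 0 higher. In PDE4D, a cAMP phosphodiesterase gene, 11 of 38 were lower and 3 higher, while LRRTM4, a synaptic adhesion gene, had 8 of 37 lower and 1 higher.
PCDH15, a protocadherin gene, had only 5 of 45 lower and 0 higher, and GFP low held 99.9% of its GFP-high level. NTM, which encodes the adhesion protein neurotrimin, split most evenly, with 10 of 35 lower and 7 higher and a summed level in GFP low of 99.4% of that in GFP high.

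**Figure D3:**
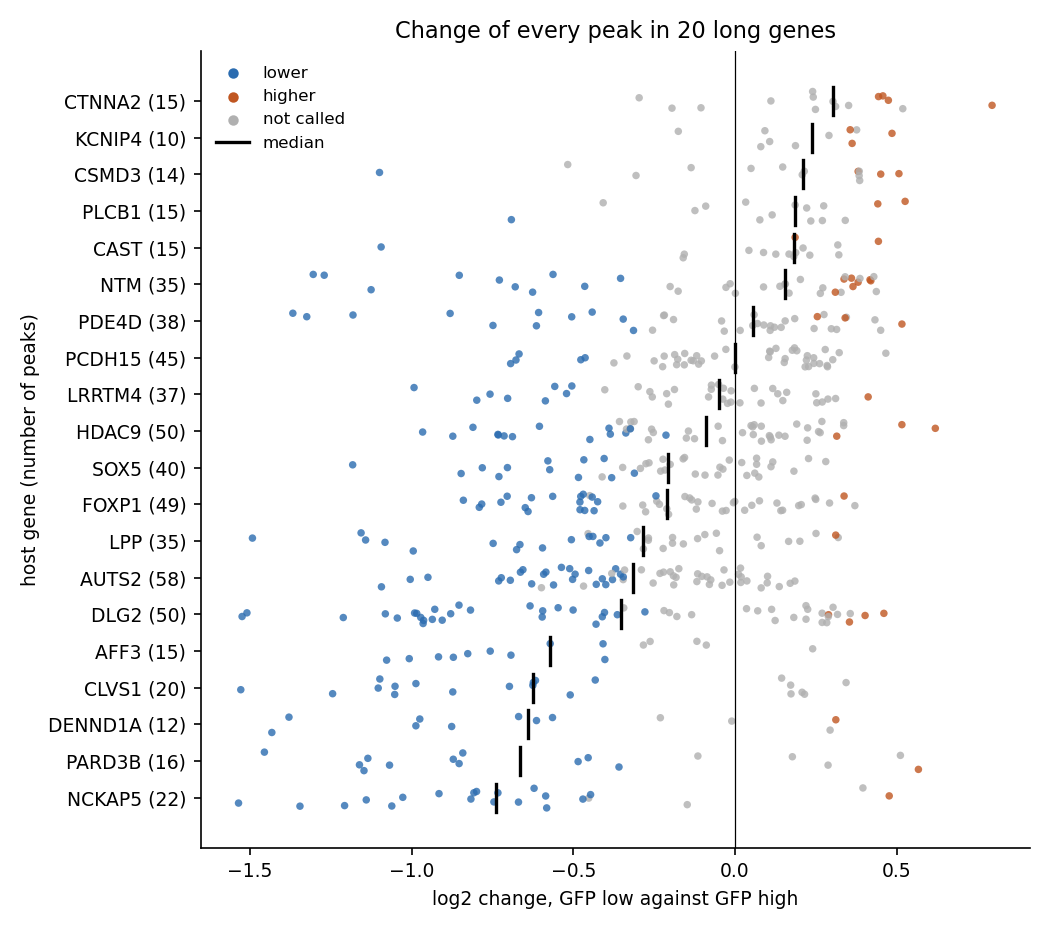
Log2 change of GFP low against GFP high of every peak in the 10 long genes with the most peaks, the 5 with the highest and the 5 with the lowest share called lower, with the number of peaks in brackets, call colours and a bar at the median. Medians run from -0.74 in NCKAP5 to 0.30 in CTNNA2, and most genes hold peaks on both sides of 0.

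The share of falling peaks was also read against the host's own 5′ end. A peak at that end was present in 65 hosts with 1046 internal peaks, of which 38.9% were called lower and 4.59% higher, with a median change of -0.20. In the 178 hosts with a listed 5′ end and no peak there, 2287 internal peaks stood at 32.0% and 7.39%, with a median of -0.05. The remaining 528 peaks lay in hosts not matched in the promoter table. As means over genes the shares called lower were 36.6% and 27.9%, and internal peaks were denser in the first group, at 20 against 15.2 per Mb. The difference was largest among weak peaks, where 40% against 29.8% were lower in the 3 weakest classes of abundance and 34.8% against 33.6% in the 3 strongest. The gap of 6.9 percentage points was 4.79 with loess scaling, 3.63 with DESeq2 and 3.85 without the 72 h libraries. Split by a peak at any annotated start of the host, 35.5% against 32.8% were called lower. Falls of at least 2-fold ran the other way by the 5′ end, with 6.31% called where it had a peak and 6.865% where not. An open 5′ end is not a measure of transcription, and no test was made.

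**Figure D4:**
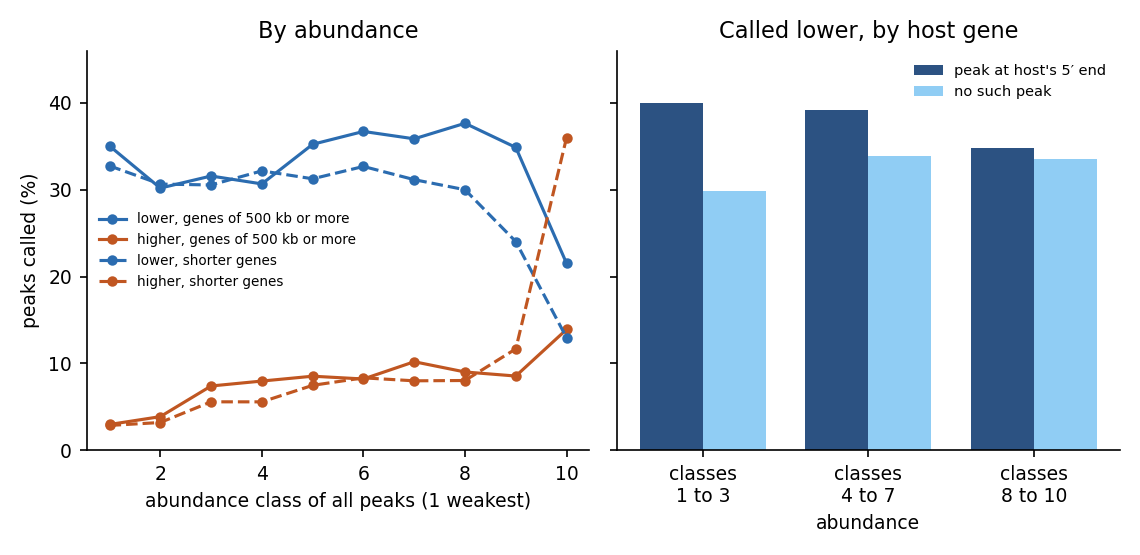
Left, share of peaks called lower (blue) and higher (orange) in each of 10 equal classes of all peaks by mean log2 CPM, solid for long genes and dashed for shorter genes. Right, share of long-gene peaks called lower in 3 ranges of abundance, by whether the host gene has a peak at its 5′ end: 40% against 29.8% in the weakest range and 34.8% against 33.6% in the strongest.

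Long genes were also grouped by known function, in lists that overlap and were chosen with earlier results of these data known. Over all long-gene peaks 33.4% were called lower and 6.97% higher, and over all peaks 25.4% and 13.4%. The list shares are to be read beside these and were not tested. Of 472 peaks in 24 genes of transcription, chromatin and RNA binding, 177 (37.5%) were called lower and 12 (2.54%) higher, with a median change of -0.22. A peak in SOX5 at chr12:24307858-24308358 had 15.7, 12.5 and 15.2 CPM in GFP high and 6.44, 5.48 and 7.23 CPM in GFP low. HIVEP3, a zinc-finger gene, fell at chr1:41518448-41518948 from 10.1, 9.12 and 8.72 CPM to 3.11, 3.38 and 4.31 CPM. In both the groups were well apart.
Of 263 peaks in 14 B-cell and blood-cell genes, 98 (37.3%) were lower and 17 (6.46%) higher. INPP4B, a phosphoinositide phosphatase, held a peak at chr4:142474651-142475151 with 9.85, 8.95 and 11.7 CPM in GFP high and 3.11, 3.16 and 4.62 CPM in GFP low. ELMO1, which activates Rac with DOCK proteins, had 13.5, 11.1 and 13.1 CPM against 6.36, 5.58 and 6.28 CPM at chr7:37310338-37310838. The LPP peak at chr3:188296537-188297037 changed by -1.49 and the AFF3 peak at chr2:99928383-99928883 by -1.01.

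Genes at common fragile sites held 580 peaks in 28 genes, with 224 (38.6%) lower and 34 (5.86%) higher. Of 352 peaks in 20 scaffold and receptor phosphatase genes, 137 (38.9%) were lower and 22 (6.25%) higher. DLG2 is in both lists, and its peak at chr11:85281469-85281969 had 15.0, 12.4 and 11.9 CPM in GFP high and 4.9, 3.98 and 4.92 CPM in GFP low. Peaks of ANK3, an ankyrin gene, and PTPRG, a receptor tyrosine phosphatase gene, changed by -1.31 and -1.19.

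The neural adhesion and guidance genes were closer to balance. Of their 582 peaks in 41 genes, 165 (28.4%) were lower and 58 (9.97%) higher, with a median change of 0.02 that lay below the median of all peaks. The peak of ROBO2, an axon guidance receptor gene, at chr3:76866612-76867112 nevertheless had 24.0, 22.8 and 21.6 CPM in GFP high and 5.96, 8.71 and 9.34 CPM in GFP low, a change of -1.52 ± 0.13. ERBB4, a neuregulin receptor gene, fell by 1.07 on the log2 scale at chr2:211422895-211423395.
Of 210 peaks in 15 ion channel and neurotransmitter receptor genes, 70 (33.3%) were lower and 19 (9.05%) higher. A second KCNQ5 peak, at chr6:73177108-73177608, fell from 59.7, 52.7 and 53.7 CPM to 28.3, 31.6 and 32.0 CPM (change of -0.85 ± 0.08). The difference between the 2 KCNQ5 peaks was not tested. RYR2, a calcium release channel gene, held a peak that changed by -1.49.
The 22 signalling genes held 325 peaks, of which 98 (30.2%) were lower and 34 (10.5%) higher. RGS7, a regulator of G-protein signalling, had 39.0, 37.2 and 41.4 CPM in GFP high and 14.9, 21.0 and 18.7 CPM in GFP low at chr1:240909990-240910490. The PRKCA peak, in a protein kinase C gene, changed by -1.31. With loess scaling the higher calls rose in every list, from 12 to 37 in the transcription list and from 58 to 125 in the adhesion list, while lower calls numbered 144 and 141 in the same lists. With DESeq2 the higher calls were 2 and 19 and the lower calls 113 and 114 in these lists, and every list had fewer calls in both directions.

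Peaks over internal starts were called in both directions. Of the 3861 peaks, 57 covered an annotated start, and 12 of them (21.1%) were called lower and 5 (8.77%) higher, with a median change of 0.07 and a median level of 11.2 CPM. Away from starts, 33.6% of 3804 peaks were lower and 6.94% higher. At the 43 starts of the host gene itself, 6 were lower and 3 higher. The levels without a model lay the other way: every GFP-low library was above every GFP-high library at 18 of the 57 starts (31.6%) and below at 10 (17.5%), and for the 43 host-gene starts at 15 and 4. Such shares were 20.8% above and 25.1% below over all peaks, and 43.05% and 5.05% at gene ends, so the starts lay above all peaks and short of gene ends in the share above. At the 14 starts of noncoding genes only, 6 were lower and 2 higher. With DESeq2, 6 of the 57 were lower and 2 higher, and without the V2 columns 7 were lower. Higher calls numbered 1 to 9 when the libraries of a time were left out and 3 without the V1 columns. Without the 24 h libraries 9 were higher and 8 lower, so which direction held more calls depends on the fit. With V read as time 16 were higher and 14 lower, and on 18 columns as separate libraries 20 and 14. Those last runs take columns counted here as technical for replicates, so their added calls cannot show a direction.
The start of LOC105374933 inside PHACTR1, whose sequence is given above, lay under a peak of 13.4, 14.2 and 14.4 CPM in GFP high and 3.66, 5.69 and 5.98 CPM in GFP low. Its change of -1.47 ± 0.14 was the largest at any start. The LOC105376342 start inside ADARB2, an RNA-editing family gene, had 9.63, 7.97 and 7.99 CPM against 3.4, 4.16 and 4.21 CPM. An internal start of ELMO1 had 9.33, 10 and 7.95 CPM against 4.53, 4.37 and 4.41 CPM, a change of -1.03. GFP levels did not overlap at these 3 starts.
The rise at the LOC124906319 start inside FGF12, a fibroblast growth factor homologous factor gene, went from 10.7, 10.8 and 11.4 CPM in GFP high to 15.4, 16.7 and 14.7 CPM in GFP low. The DLGAP1-AS1 start rose by 0.32 ± 0.11 (adjusted p = 0.0256 by edgeR), and DESeq2 did not call it (adjusted p = 0.0713). KLF12, a Krüppel-like factor gene, had 79.2, 79.6 and 75.6 CPM at an internal start in GFP high and 88.3, 93.4 and 90.9 CPM in GFP low, a change of 0.22 that was 0.005 with loess scaling. The CDK14 start, a cyclin-dependent kinase gene, had 80.6 to 83.7 CPM in GFP high and 83.6 to 91.0 CPM in GFP low, and was not called.

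The internal starts were poor in CG dinucleotides. Over the 250 bases before the start, the median was 3 CG under the 57 peaks and 11 over all 34943 starts in the RefSeq table. Windows with 10 or more CG made up 9 of the 57 (15.8%) and 52.1% of all. None of those 9 was called lower and 2 were called higher, at a median of 37.4 CPM, while of the 48 poorer windows 12 were lower and 3 higher, at a median of 10.9 CPM. The printed KLF12 window has 18 CG, the ELMO1 window 1 and the CDK14 window 2, so a high level was also seen at a window poor in CG.
Short motifs were searched on both strands in the same 250 bases. The GC box GGGCGG was found in 15.8% of the 57 windows and 42.5% of all, and the ETS core CCGGAA in 1.75% and 14.5%. The TATA box TATAAA was found in 21.1% and 10.8%, the AP-1 motif TGANTCA in 10.5% and 6.59%, the RUNX motif TGTGGT in 12.3% and 11%, and the CCAAT box in 33.3% and 32.0%. In the 57 windows these shares stand for 9 GC box, 1 ETS, 12 TATA, 6 AP-1, 7 RUNX and 19 CCAAT windows. The median share of G and C bases was 44% in the 57 windows and 58% in all. The part of this base composition in the motif shares was not tested. Matches of different motifs may overlap, and a match is a description of the letters only. The printed PHACTR1 stretch holds 1 AP-1 match, the ADARB2 stretch 1 TATA match and the FGF12 stretch 2.

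**Figure D5:**
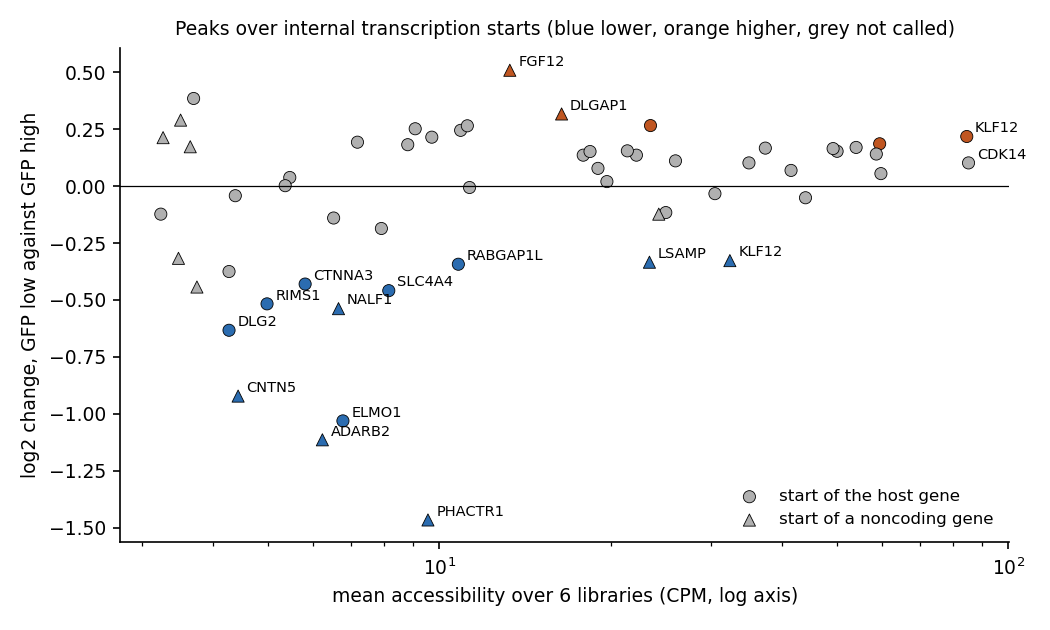
Mean level in CPM on a log axis against log2 change for the 57 peaks over internal transcription starts, circles for starts of the host gene and triangles for starts of noncoding genes, coloured by call and labelled with the host gene. Most called falls lie under about 11 CPM, and the strongest starts, KLF12 and CDK14, lie just above 0.

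The count of peaks with a 2-fold difference was highest at 24 h. At that time 540 long-gene peaks (14.0%) were at least 2-fold lower in GFP low, against 8.16% of all peaks. At 48 h there were 220 (5.70%, against 3.85%) and at 72 h 259 (6.71%, against 3.83%). Among all peaks away from gene ends the shares were nearer, at 9.93%, 4.67% and 4.66% for 24, 48 and 72 h. Peaks at least 2-fold higher numbered 5, 11 and 4 at the 3 times, against 0.212%, 0.226% and 0.0911% of all peaks. Each time has 1 library per GFP level, so these counts have no replicate check. With loess scaling the lower counts were 357, 161 and 168. With the V number of the headers read as time in place of the D number they were 291, 288 and 288. Each library of that run mixes all 3 D numbers, so the run cannot show a difference between days. At 1 GFP level, columns of different D number differed by 2.21 to 3.47 times counting noise, against 1.78 to 1.81 within a group. The excess at 24 h is given for the reading of D as day, which the labels do not state.
The 540 peaks of 24 h mostly kept their sign. They were chosen for their value at 24 h in single libraries, which by itself favours smaller differences at the other times. Their median difference went from -1.23 (24 h) to -0.81 (48 h) and -0.77 (72 h), and 532 of them were still below 0 at 72 h. Of the 540, 158 were also 2-fold lower at 48 h and 160 at 72 h, and 87 were so at all 3 times. The same counts were not made for all peaks, so they cannot be read as particular to long genes.
A CNTNAP2 peak at chr7:146539726-146540226, in a neurexin-family gene, had 6.54, 7.9 and 6.59 CPM in GFP high and 1.1, 2.67 and 3.8 CPM in GFP low, so its difference went from -2.50 at 24 h to -0.78 at 72 h. PTPRT, a receptor phosphatase gene, went the other way at chr20:42492110-42492610, with 4.04, 4.51 and 3.49 CPM in GFP high and 1.9, 1.64 and 0.713 CPM in GFP low and differences of -1.06 and -2.18 at 24 and 72 h. A PDE4B peak at chr1:66253223-66253723 was 1.17 higher in GFP low at 24 h on the log2 scale and 0.25 higher at 72 h.

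Within a GFP level, few long-gene peaks differed 2-fold between 24 and 72 h. In GFP high 2 were at least 2-fold up and 41 down (0.0518% and 1.06%, against 0.0841% and 0.599% of all peaks). In GFP low 24 were up and 75 down (0.622% and 1.94%, against 0.632% and 1.09%). The largest decline in GFP high was in C12orf42, from 5.72 CPM at 24 h through 2.95 to 0.924 CPM, and the largest in GFP low was in ADARB2, from 6.8 through 3.06 to 1.22 CPM. Both are weak peaks in single libraries.

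The changes of neighbouring peaks were most alike at short range. Over pairs of adjacent peaks in the same host, Pearson's correlation of the log2 change was 0.54 at under 2 kb (440 pairs), 0.27 at 2 to 10 kb (670 pairs), 0.21 at 10 to 50 kb (1338 pairs), 0.07 at 50 to 200 kb (931 pairs) and 0.15 beyond (189 pairs). Pairs share libraries and often abundance, so the values are a description. Both peaks were called lower in 23.9% of the closest pairs and 5.82% of the farthest. The median spacing was 23.1 kb, and 31.1% of 3568 gaps were under 10 kb.
Shares were also read by position in the gene. Of the 155 peaks 1 to 10 kb from a gene end, 23.9% were lower and 9.03% higher, and at all greater distances 30.5% to 35.5% were lower. Over 5 equal stretches of the gene from its 5′ end the share lower ran from 32.5% to 36.4%. By host length it ran from 36.9% at 500 to 600 kb to 30.5% at 750 to 1000 kb, with 32.6% over 1500 kb. The 45 peaks that also lay inside a shorter gene nested in the long gene had 13 lower and 3 higher.
Around the limits of the rule, 217 peaks in genes of 500 to 520 kb had 30.9% lower and 6.45% higher, and 295 in genes of 480 to 500 kb had 31.2% and 5.76%. The 28 peaks 1 to 2 kb from a gene end had 5 lower and 4 higher, whereas 89 peaks in long genes within 1 kb of an end had 5 lower and 31 higher.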

How the data were processed

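The deposited file gives read counts per peak, whole numbers that were not normalised, for 18 columns and 71318 peaks of 501 bp on hg38. The submitters' processing notes name BWA, FastQC, R 4.2.1 and deepTools. The role of each, the peak caller, whether duplicates were removed and whether reads were shifted at the transposase cut were not given in the sources used here, and each could change the counts. Columns held 7106939 to 11171849 counts and were summed to 6 libraries by GFP level and D number. The V numbers could not be tied to the labels' replicates.

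Peaks were placed in 19879 protein-coding genes of the RefSeq table, after 95 readthrough genes were left out. The 5′ ends and internal starts came from the RefSeq promoter table on GRCh38.p14, in which 250 of the 302 long genes were matched. A 5′ end had a peak if a peak centre lay within 1 kb of the outermost end, and an internal start was covered if it lay inside the peak. Sequence windows were the 250 bases before a start.

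The comparison of GFP levels used edgeR 4.0.16 in R 4.3.3 with TMM scaling, a robust quasi-likelihood fit of time plus GFP level on all peaks (2 residual degrees of freedom, a median of 22.6 prior degrees of freedom) and Benjamini-Hochberg adjustment at 0.05. The p-values therefore rest largely on spread borrowed from other peaks, and they measure the spread between these libraries, which may be technical. The low-count filter removed 0 peaks, and the lowest mean count of a long-gene peak was 43.8. Differences at 1 time are log2 CPM with a prior count of 2 and have no test. Alternatives were DESeq2 1.42.0, loess scaling, library totals, count filters, 18 columns with and without a block, columns or times left out and V read as time.

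Named peaks are the 10 largest falls and 8 largest rises past the threshold, 1 per gene with the same sign at each time, the 5 strongest, the 3 largest rises and falls at each time, the largest change with time in each GFP level, 4 per function list, the smallest p in each named gene and those over starts. The text names some of these, and 1 is not reported here. Named genes are the 10 with the most peaks and the 5 with the highest and lowest shares lower among those with 10 or more. The members, lists and rules were chosen with earlier results of these data known.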

Additional observations from a re-analysis of the deposited data

Results flagged for a closer look

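At 6 named peaks the GFP difference had opposite signs at 2 times, with the 95% counting interval of each off 0. Each time has 1 library per GFP level, and the difference between times was not tested. In C12orf42 the log2 difference of GFP low from GFP high was -0.881 at 24 h and 1.034 at 72 h. The FOXP2 peak at chr7:114437536-114438036 went from -0.905 to 1.218 over the same times. ADARB2 held a peak with 0.986 at 24 h and -1.174 at 72 h. In PCDH15 the difference was 0.757 at 24 h and -0.369 at 72 h. FRMD4A had 0.626 at 24 h and -0.395 at 48 h at a peak over an internal start, and HDAC9 had -0.163 at 24 h and 0.289 at 48 h. None of the 6 was called over the times, and several were named for an extreme value at a single time or change with time, which favours such crossings.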

How the results depend on the processing

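Lower calls kept within 1.5 times of 1291 under every alternative run, from 935 with DESeq2 to 1529 with the V number read as time, and no called peak turned to a call of the other sign. Higher calls were less steady. Against 269, they were 60 with DESeq2, 581 with loess scaling, 134 without the 48 h pair of libraries, 105 without the 72 h pair and 620 with V read as time. Loess scaling turned the comparison with all peaks, to 15.0% higher against 13.3%, while DESeq2 kept it, at 1.55% against 5.22%. On 18 columns as separate libraries they were 713 without the replicate block and 715 with the V number as block. These runs and that with V read as time take columns counted here as technical for replicates, so their added calls are not independent. The V numbers did not pair the columns: the correlation of deviations had a median of 0.0046 between columns of the same V number. The cause was not tested. The median change of -0.082 became 0.002 with loess scaling. Counting each gene once gave 29.9% lower and 8.07% higher. With loess scaling the KCNQ5 peak near the gene's end turned to -0.256 and SYNE1 to -0.042. Peaks at least 2-fold lower became 357 at 24 h and 168 at 72 h with loess scaling, and 291 at 24 h with V read as time. In the V-as-time run each library mixes all 3 D numbers, so its values cannot show a difference between days. Peaks at least 2-fold higher became 33, 28 and 12 at 24, 48 and 72 h with loess scaling and 4 at 48 h with V read as time. Leaving out a V number in turn gave 14 to 25, 22 to 45 and 10 to 15 of them at the 3 times, where each library then holds fewer counts. Among 129 named peaks, DESeq2 lost 17 calls. Loess scaling lost 7 and gained 8 at peaks that kept their sign, and the sign of the change turned at 2 others. These 2 are the KCNQ5 peak near the gene's end, called with loess scaling only, and the SYNE1 peak, whose call was lost with it. Depth limits the weak peaks, and 1 library per GFP level and time limits all values at a single time.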

Other observations

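The rule keeps to autosomes. On the X chromosome, 77 peaks lay in genes of the same length away from gene ends, of which 27 (35.1%) were called lower in GFP low and 5 (6.49%) higher by edgeR, with a median log2 change of -0.15. By chromosome, among those with over 100 long-gene peaks, the share called lower ran from 26.5% of 170 peaks on chromosome 8 to 42.2% of 109 on chromosome 14. Chromosome 18 had 15.4% of 39 peaks lower and 12.8% higher. These shares have no test.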
